A study of Mus musculus with 18 samples.

Results

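The comparison set regulatory T (Treg) cells with extra miR-23 against Treg cells without the clusters that encode it. It used 6 of 18 RNA sequencing libraries, 3 labelled miR-23 Tg and 3 labelled DKO, with the 3 WT libraries set beside them. Genes were taken when they reached 1 RPKM (reads per kilobase of transcript, scaled by library depth) in at least 3 of the 18 libraries, which left 11520 of 23949 entries. All cells were sorted as CD4+CD25hi from C57BL/6 mice. The miR-23 Tg mice overexpressed miR-23 alone in T cells. The DKO mice lacked both miR-23 clusters, a and b, in T cells, so the DKO cells had also lost the miR-24 and miR-27 of those clusters. WT mice were the controls; the labels write DKO and WT as "DKO Tg" and "WT Tg" and do not say whether these carried a transgene or Cre without a target. The series name points to Cre under the CD4 promoter, which is active from early in T cell development, so other T cells of the same animals were altered too. Age, sex and the number of animals are not in the labels. Whether each of a group's 3 libraries was a separate animal is not stated. Each group held libraries of both sexes by their transcripts, so more than 1 animal stood behind it, but p-values measure only the spread between libraries, part of which may be technical.

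MicroRNAs guide the silencing complex to messenger RNAs, mostly through pairing of the seed, the bases near the 5′ end, with the 3′ UTR. A paired message is degraded or translated less. The paralogous miR-23a and miR-23b clusters each encode a miR-23, a miR-27 and a miR-24, whose seeds differ. Because the DKO cells lacked all members and the miR-23 Tg cells gained only miR-23, the contrast holds a gain of miR-23 on one side and the loss of the families together on the other. The WT cells, which lie between these in miRNA dose, show on which side a gene moved.

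The mature miRNAs below, from RefSeq (GRCm38.p6), are shown because their seeds define the site classes used throughout. Capitals mark the seed, bases 2 to 8. The miR-23 and miR-27 seeds share all but the next-to-last letter, U in miR-23 and G in miR-27. The 27a and 27b forms share a seed.
miR-23a-3p (chr8:84208563-84208583, plus strand): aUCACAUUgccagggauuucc
miR-24-3p (chr8:84208875-84208896, plus strand): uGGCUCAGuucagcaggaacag
miR-27a-3p (chr8:84208727-84208747, plus strand): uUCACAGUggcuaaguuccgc
miR-27b-3p (chr13:63300760-63300780, plus strand): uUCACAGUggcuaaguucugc

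The letters that pair with the miR-23 seed in a 3′ UTR are AATGTGA. The windows below come from genes that carried this match and were lower in miR-23 Tg than in DKO Treg, and whose values are given further on. Each is 29 bases of the transcript strand from GENCODE M21 on GRCm38, with the seed match in capitals.
Rcn1, bases 619 to 625 of a 1628-base 3′ UTR: caaaaaaagatAATGTGAacaaaaacgga
Asah2, bases 65 to 71 of 4161: gaattcacacaAATGTGAactgccagttt
Myo6, bases 1404 to 1410 of 3858: taataattgaaAATGTGAatgaggttttc
Ptrf, bases 1340 to 1346 of 1891: gatctttctctAATGTGAaactttagagc
8430419L09Rik, bases 232 to 238 of 2258: gatactttggaAATGTGAatcttatagct
8430419L09Rik, bases 2141 to 2147 of 2258: ctaaccccaggAATGTGAattgctgtcca
8430419L09Rik, bases 2213 to 2219 of 2258: gtaaggtttaaAATGTGAactgctacaga
Ppif, bases 667 to 673 of 866: tctttctgctcAATGTGAattcccgtggt
Sh3bgrl, bases 151 to 157 of 2309: agcataatgaaAATGTGAacatggtggta
Etnk1, bases 1050 to 1056 of 5090: acaaataaggaAATGTGAattagacagta
In each of these windows the match is followed by an A, the base that makes an 8-base site. Among the other matches of these genes, not shown, 1 of Ppif and 2 of the 6 of Etnk1 lack the A.

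Depth, estimated from the steps between RPKM values, was about 20.2 to 31.6 megareads over the 18 libraries, an approximate figure because 22.3 to 31.1% of the values tested fell within 0.05 of whole reads. Between 10710 and 11121 genes reached 1 RPKM per library. The Treg label held: Foxp3, the lineage factor, lay at 215 to 249 RPKM in miR-23 Tg, 312 to 348 in DKO and 287 to 336 in WT, and Ctla4 at 427 to 495, 431 to 499 and 406 to 509 RPKM in the same order. Xist was expressed in 1 of 3 miR-23 Tg, 2 of 3 DKO and 2 of 3 WT libraries, so the groups were mixed for sex. Markers of other cells were not equal. The summed RPKM of 18 B cell genes was 275 to 415 in miR-23 Tg, 157 to 268 in DKO and 138 to 206 in WT, and none of them was at 0 in all 6 libraries compared. The CD20 gene Ms4a1 stood at 3.70, 4.25 and 3.09 RPKM in miR-23 Tg against 0.490, 0.604 and 0.536 in DKO. In bulk RNA, a different number of cells of a type and a different amount of RNA per cell cannot be told apart.

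The gain of miR-23 followed the label, and the loss in DKO could be checked only in part. The Mir23a entry (chr8:84208518-84208592) read 31554, 31028 and 38276 RPKM in miR-23 Tg Treg and was listed at 0 in all 3 DKO libraries, with 61.8, 155 and 0 RPKM in WT. Mir27a, next to it, read 135, 107 and 217 RPKM in miR-23 Tg, was listed at 0 in the 3 DKO libraries, and read 347, 145 and 0 RPKM in WT. Mir24-2 read 32.9, 28.3 and 36.0 RPKM in miR-23 Tg, 0, 11.5 and 0 in DKO and 50.3, 0 and 0 in WT. For these 3 entries the miR-23 Tg libraries were above every DKO library (exact permutation test, two-sided, p = 0.1 each, the smallest that 3 against 3 libraries can give). Between DKO and WT the 3 entries gave exact p of 0.4, 0.4 and 0.7 (two-sided permutation, where 3 against 3 cannot go below 0.1), and WT replicate 3 was also at 0 for Mir23a and Mir27a. The miR-23b cluster entries, Mir23b, Mir27b and Mir24-1, were at or near 0 in all 18 libraries, WT included, with a highest value of 0.00771 RPKM, so they do not check the deletion. Reads in such short entries come from longer precursor or transgene RNA, and the mature miRNAs were not measured.

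**Figure D1:**
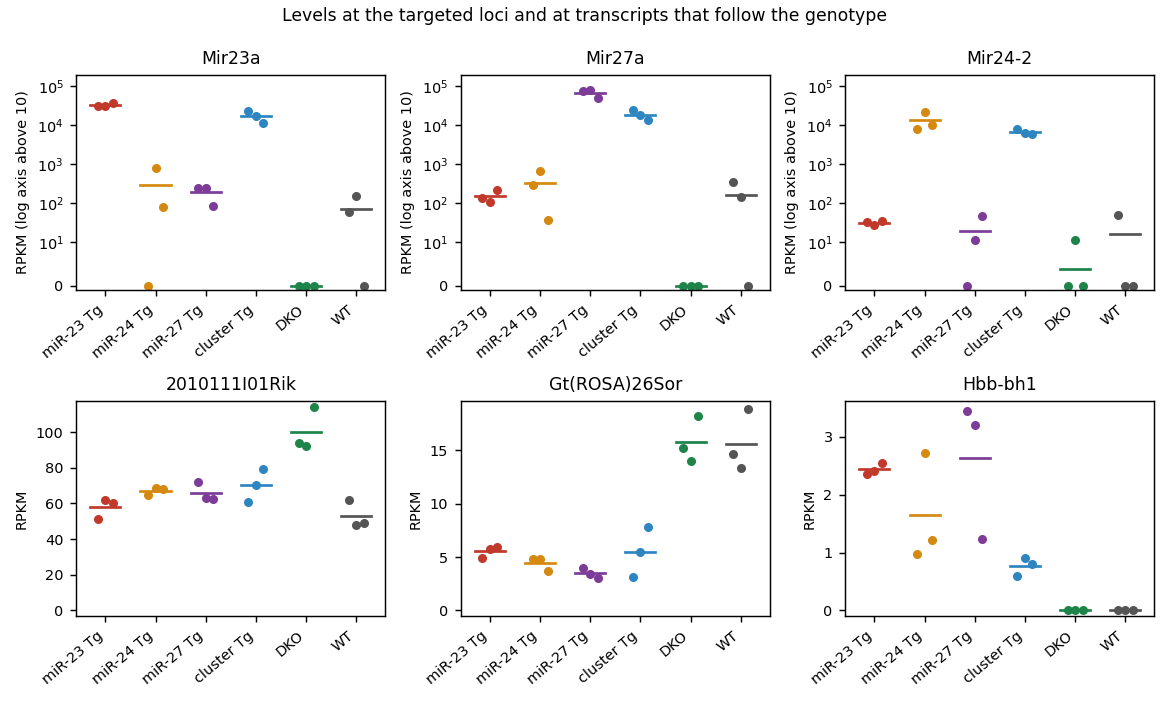
RPKM in each library (points) and the group mean (bar) for 6 transcripts in the 6 genotypes; the miRNA panels have a log axis above 10. Mir23a is high in miR-23 Tg and cluster Tg and at 0 in DKO, 2010111I01Rik is highest in DKO, and Gt(ROSA)26Sor is low and Hbb-bh1 present in all 4 transgenic groups.

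A pair of further transcripts lay at loci that the genotypes could touch. Gt(ROSA)26Sor, the transcript of the Rosa26 locus often used to host transgenes, stood at 4.93, 5.76 and 5.93 RPKM in miR-23 Tg, 15.3, 14.0 and 18.2 in DKO and 14.6, 13.3 and 18.8 in WT. It was also low in the other transgenic groups, where its means were 4.46 RPKM (miR-24 Tg), 3.47 RPKM (miR-27 Tg) and 5.48 RPKM (cluster Tg). Its log2 fold change was -1.43 ± 0.23 (SE; limma, adjusted p = 0.0085), and it was as low against WT. 2010111I01Rik, an aminopeptidase gene whose span holds the miR-23b cluster (chr13:62964893-63326096), read 51.0, 61.8 and 60.4 RPKM in miR-23 Tg, 93.9, 92.2 and 114 in DKO and 62.2, 47.8 and 49.0 in WT. It was higher in DKO than in WT (adjusted p = 0.0155), so its lower level in miR-23 Tg than in DKO (log2 -0.79, adjusted p = 0.00646) was a change on the DKO side.

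Across all genes, 204 of 11520 (1.77%) differed between miR-23 Tg and DKO Treg at an adjusted p under 0.05, 75 higher (0.651%) and 129 lower (1.12%). At an unadjusted p under 0.05 the count was 2026 (17.6%). The 2 groups did not overlap in any of the 204, while over all tested genes 14.0% were wholly higher and 11.5% wholly lower in miR-23 Tg. Most differences were small: 22 of the rises and 15 of the falls reached 2-fold on the log2(RPKM + 0.5) scale. In the same model 41 genes (0.356%) differed between miR-23 Tg and WT, and 2 (0.0174%) between DKO and WT, both higher in DKO, with 254 (2.2%) at an unadjusted p under 0.05. These comparisons share libraries. The WT mean was nearer to DKO than to miR-23 Tg for 71 of the 75 rises (94.7%) and 101 of the 129 falls (78.3%), against 68.9% of all tested genes. The counts depended on single libraries. They were 11 higher and 18 lower without miR-23 Tg replicate 1, 14 and 38 without replicate 2, 43 and 77 without replicate 3, 13 and 29 without DKO replicate 1, 18 and 56 without replicate 2, and 38 and 62 without replicate 3. All 204 genes kept their direction in each of these fits. Since their groups did not overlap, leaving out a library could not reverse it, so this is no test. Of the 204, 27 passed in all of these fits.

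The 12 named rises included genes of other blood cells and genes of dividing cells. Igj, the joining chain that plasma cells add to secreted IgM and IgA, read 18.2, 19.4 and 8.17 RPKM in miR-23 Tg and 0.319, 0.620 and 0.314 in DKO (log2 4.03 ± 0.90, adjusted p = 0.0382). The miR-23 Tg libraries were all far above the DKO ones, and the WT libraries (0.846, 0.290 and 0.227 RPKM) were as low as DKO. Igj was also above DKO in miR-24 Tg, miR-27 Tg and cluster Tg, with means of 10.4, 36.3 and 5.65 RPKM. The plasma cell list was split: of 8 genes tested, 4 had a positive and 4 a negative log2 fold change, with a median of 0.14. At an unadjusted p under 0.05, 4 were higher and none lower (background 9.17% and 8.42%). Hbb-bh1, an embryonic beta-like globin, read 2.35, 2.40 and 2.54 RPKM in miR-23 Tg and was listed at 0 in every DKO and WT library. Globin genes have near-identical copies, so its reads may be shared with them, which was not tested. Its level did not always follow the summed erythroid and platelet markers. WT replicate 2 had a sum of 23.98 RPKM with Hbb-bh1 at 0. The sums were 41.1, 45.0 and 15.4 RPKM in miR-23 Tg, where replicate 3 had the lowest sum and the highest Hbb-bh1. DKO (1.55 to 5.97 RPKM) and WT replicates 1 and 3 (3.94 and 2.32 RPKM) had low sums and Hbb-bh1 at 0. Cyclin A2 (Ccna2), which drives S phase and entry into mitosis, read 19.2, 20.1 and 16.9 RPKM in miR-23 Tg against 2.57, 4.19 and 5.78 in DKO (log2 2.10 ± 0.44, adjusted p = 0.0319). Mxd3, Kif18b, Mki67, Troap and Espl1, all genes of proliferating cells, rose with log2 fold changes of 2.05, 1.55, 1.50, 1.37 and 1.36.

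Outside those groups, Dapl1, a transcript linked to resting and memory-like T cells, rose most. Dapl1 was also high in miR-24 Tg and cluster Tg (means of 43.8 and 41.2 RPKM) but not in miR-27 Tg (10.2 RPKM). It read 26.5, 36.7 and 22.7 RPKM in miR-23 Tg, 4.54, 6.52 and 4.65 in DKO and 7.81, 7.03 and 13.8 in WT (log2 2.33 ± 0.28, adjusted p = 0.00102), and it also differed from WT (adjusted p = 0.0308). It was the only called gene among 22 tested genes of resting T cells (background 1.77% in either direction). The list did not rise with it: 16 of the 22 had a negative log2 fold change, and the median was -0.06. Tmevpg1, the long noncoding RNA beside the interferon-gamma gene, read 2.72 to 3.15 RPKM in miR-23 Tg and 0.642 to 1.59 in DKO (adjusted p = 0.0234). Cdcp1, a transmembrane glycoprotein, and Fam160a1 rose by 1.60 and 1.22 on the log2 scale. Further rises were picked out after their values were seen. Among them F2rl1, a protease-activated receptor, read 19.9, 17.3 and 18.7 RPKM against 10.9, 8.53 and 8.72 in DKO (adjusted p = 0.000879), and the growth factor Bmp7 read 17.5, 14.7 and 15.4 RPKM against 7.75, 8.79 and 8.52 (adjusted p = 0.00417). Dusp6, a phosphatase that restrains ERK signalling, rose by 0.92, and Sema4f by 0.93 on the log2 scale.

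**Figure D2:**
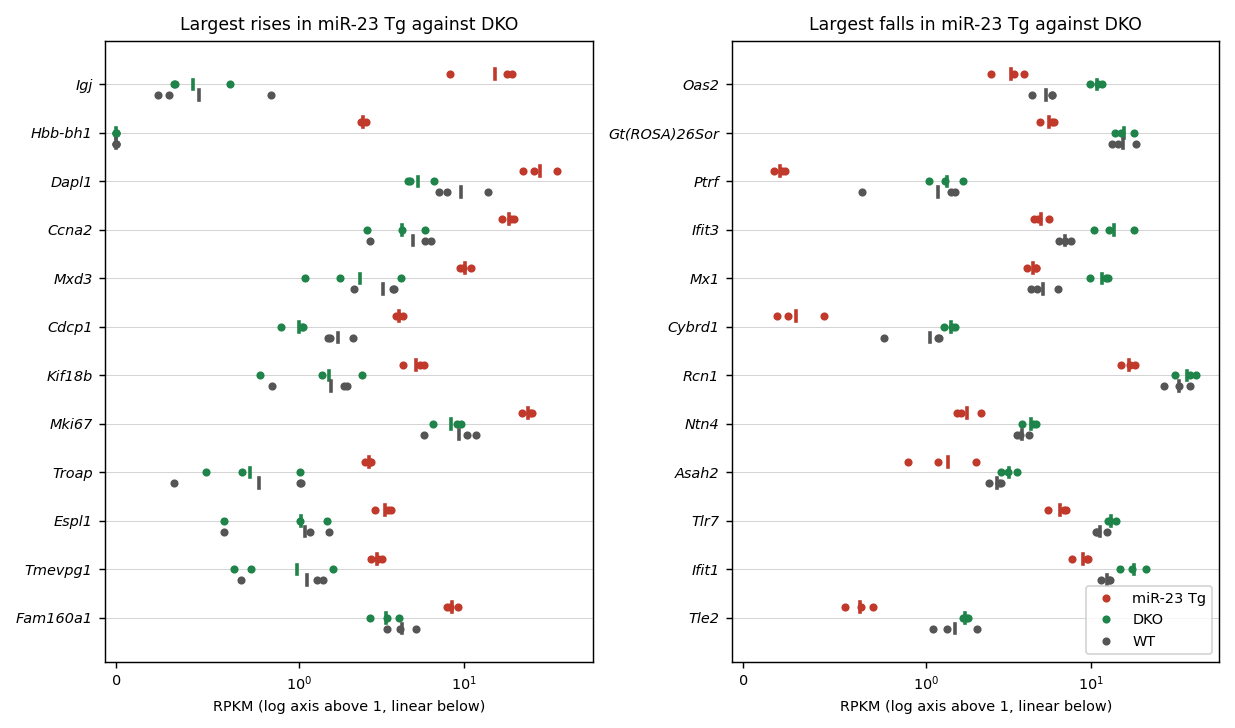
RPKM per library (points) and group mean (tick) for the 12 largest rises and 12 largest falls in miR-23 Tg against DKO, with WT below; the axis is linear under 1 and logarithmic above. In every row the miR-23 Tg points are separate from the DKO points, and for Oas2, Ifit3 and Mx1 the WT points lie nearer to miR-23 Tg.

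Among the falls, genes with a miR-23 seed match were common. A 3′ UTR of at least 50 bases was available for 122 of the 129 falls, and 52 of these (42.6%) held at least 1 AATGTGA, 20 of them at least 2. The same letters stood in 6 of 69 rises (8.70%) and in 1732 of 10586 tested genes with a 3′ UTR (16.4%). By number of matches, 70 of 8854 genes with none were lower (0.791%), 32 of 1427 with 1 (2.24%), 15 of 234 with 2 (6.41%) and 5 of 71 with 3 or more (7.04%). The median log2 fold change followed the same order, at 0.03, -0.04, -0.09 and -0.16, beside 0.02 over all genes with a 3′ UTR. Genes with an 8-base match had a median of -0.09, and 32 of 734 were lower (4.36%). These medians are small beside the fold changes of single genes, and overlapping sites for other factors were not considered.

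**Figure D3:**
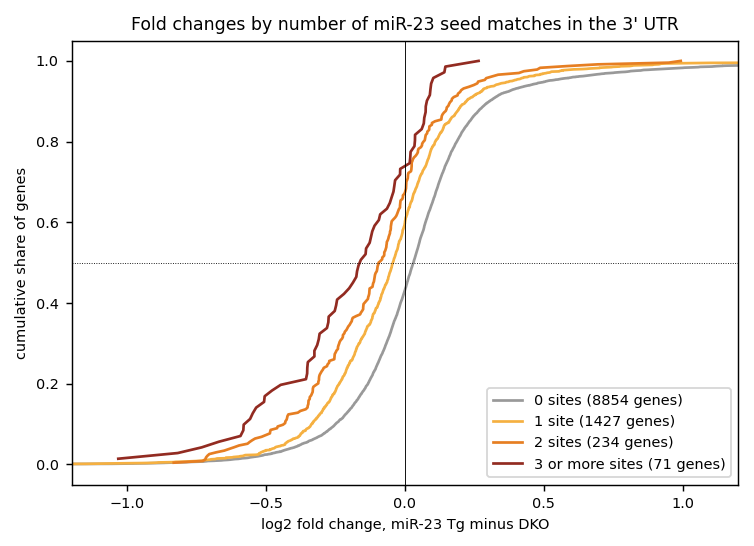
Cumulative share of genes (vertical axis) against the log2 fold change, miR-23 Tg minus DKO (horizontal axis), for genes with 0, 1, 2 or at least 3 miR-23 seed matches in the 3′ UTR. The curves lie further left with each added match, with medians of 0.03, -0.04, -0.09 and -0.16.

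Genes with matches had longer 3′ UTRs, with medians of 972.5, 2246, 3283.5 and 4474 bases for 0, 1, 2 and at least 3 matches. Within tertiles of 3′ UTR length, the share of genes called lower was 4.72% with a match and 0.557% without in the short tertile, 3.28% and 0.956% in the middle, and 2.69% and 0.912% in the long. The corresponding medians were -0.03 and 0.05, -0.04 and 0.03, and -0.06 and -0.00. Sites of the other families gave smaller counts. With a miR-23 match only, 30 of 951 genes were lower and 6 higher. With a miR-27 match only, 12 of 1011 were lower and 7 higher, and with a miR-24 match only, 7 of 1231 were lower and 12 higher. The medians for these 3 classes were -0.05, -0.01 and 0.02. Set beside WT, genes with a miR-23 match had a median of -0.05 for miR-23 Tg minus WT and 0.01 for DKO minus WT, 2 comparisons that share the WT libraries.

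The site classes were also compared within single libraries. The median level of genes with only a miR-23 match minus that of genes with only miR-24 or miR-27 matches, each centred on its mean over the 18 libraries, was -0.09, -0.07 and -0.06 in the miR-23 Tg libraries. It was 0.00, -0.03 and -0.03 in DKO and -0.04, -0.01 and 0.02 in WT, so the miR-23 Tg libraries were the lowest of all. Against genes with no match of any family, the groups overlapped: the differences were -0.06, -0.11 and -0.02 in miR-23 Tg and 0.12, 0.04 and -0.06 in DKO.

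**Figure D4:**
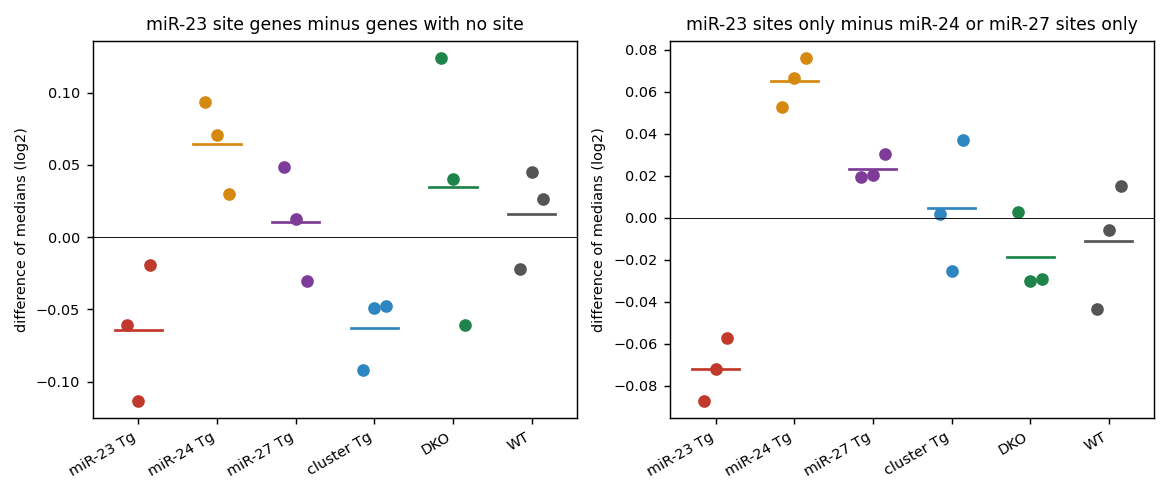
Difference of median centred log2 levels in each library (points) with the group mean (bar), for genes with a miR-23 match minus genes with none of the 3 families (left) and for genes with only miR-23 matches minus those with only miR-24 or miR-27 matches (right). On the left miR-23 Tg overlaps DKO, and on the right the 3 miR-23 Tg libraries, at -0.09 to -0.06, lie below the other 15.

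Rcn1 (chr2:105386291-105399319, minus strand), a calcium-binding protein of the endoplasmic reticulum, read 15.2, 17.3 and 18.3 RPKM in miR-23 Tg, 39.6, 32.3 and 43.3 in DKO and 34.2, 27.8 and 39.6 in WT (log2 -1.15 ± 0.21, adjusted p = 0.0166). DKO and WT overlapped and both lay above miR-23 Tg. A low level was not particular to miR-23 Tg: the means were 12.9 RPKM in miR-27 Tg, 13.6 in cluster Tg and 28.7 in miR-24 Tg. 8430419L09Rik, named Fam234b in GENCODE and carrying the 3 windows shown above, read 5.17, 4.25 and 4.78 RPKM in miR-23 Tg, 10.7, 9.72 and 10.1 in DKO and 8.03, 7.80 and 8.58 in WT (log2 -1.03 ± 0.11, adjusted p = 0.000797). Here WT lay between the others without overlap, and miR-23 Tg was also below WT (adjusted p = 0.0175). Ptrf, which encodes the caveolar coat protein cavin-1, read 0.215, 0.168 and 0.229 RPKM in miR-23 Tg and 1.67, 1.31 and 1.04 in DKO. It was also low in miR-24 Tg, miR-27 Tg and cluster Tg, with means of 0.209, 0.568 and 0.303 RPKM. Asah2, the neutral ceramidase, and Myo6, a minus-end directed myosin, fell by 1.02 and 0.93 on the log2 scale. Asah2 was not low in miR-24 Tg, miR-27 Tg and cluster Tg, with means of 3.77, 4.31 and 3.31 RPKM against 1.36 in miR-23 Tg.

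Ppif, the mitochondrial cyclophilin that promotes opening of the permeability transition pore, is among the published miR-23 targets. It read 19.9, 18.6 and 20.2 RPKM in miR-23 Tg, 28.5, 32.8 and 33.9 in DKO and 25.8, 23.1 and 24.8 in WT (log2 -0.68 ± 0.09, adjusted p = 0.00213), again with WT between the others. It was the only one of 31 tested literature targets of miR-23 that passed (background 1.12% lower). At an unadjusted p under 0.05, 7 were lower and 1 higher (background 8.42% and 9.17%), and the list's median was -0.13 beside 0.01 for all genes. Other site-bearing falls were picked out after their values were seen. Sh3bgrl, a small adaptor-like protein, read 35.5, 38.7 and 38.3 RPKM in miR-23 Tg, 64.9, 58.0 and 62.6 in DKO and 56.9, 55.9 and 55.1 in WT (log2 -0.71 ± 0.07, adjusted p = 0.000321). Etnk1, an ethanolamine kinase of phospholipid synthesis with 6 matches, read 39.3, 36.7 and 41.8 RPKM against 77.5, 61.9 and 70.0 in DKO (adjusted p = 0.00417). The cyclin G1 gene Ccng1, a p53 target with 2 matches, read 45.1, 47.2 and 38.8 RPKM against 77.1, 78.8 and 61.4 (adjusted p = 0.00304).

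Zinc finger genes with a Zfp symbol made up 10 of the 129 falls (7.75%) and none of the 75 rises, against 275 of 11520 tested genes (2.39%), and 8 of the 10 held a miR-23 match. Such a match stood in 84 of the 275 tested Zfp genes. Many genes of this family have near-identical copies, so the split of reads among them is uncertain. Zfp935, with 8 matches and named after its values were seen, read 4.79, 4.96 and 6.19 RPKM in miR-23 Tg and 9.54, 8.23 and 7.06 in DKO. A match did not always go with a fall. Espl1 (the protease separase), the glycoprotein gene Gpm6b, Mctp2, Dennd2d and Endod1 carried a match and rose, Gpm6b to 14.2, 15.3 and 17.5 RPKM in miR-23 Tg against 6.96, 8.19 and 7.70 in DKO (log2 0.99, adjusted p = 0.0322).

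The largest of the 12 named falls was in the interferon response, the antiviral program that type I interferon switches on. Oas2, which makes the 2′-5′ oligoadenylates that activate RNase L, read 3.91, 3.43 and 2.48 RPKM in miR-23 Tg, 11.6, 9.85 and 11.0 in DKO and 5.82, 4.35 and 5.78 in WT (log2 -1.60 ± 0.21, adjusted p = 0.00213). Ifit3, an antiviral protein of the IFIT family, read 4.51, 5.54 and 4.78 RPKM in miR-23 Tg, 12.9, 10.4 and 18.2 in DKO and 7.54, 6.35 and 6.91 in WT (adjusted p = 0.0049). Mx1, an antiviral GTPase, read 4.65, 4.64 and 4.06 RPKM in miR-23 Tg, 12.3, 9.79 and 12.7 in DKO and 6.27, 4.34 and 4.71 in WT (adjusted p = 0.0106). In all 3 genes the DKO libraries stood above those of both other groups, and the WT mean was nearer to miR-23 Tg, although DKO against WT did not pass (adjusted p = 0.412, 0.480 and 0.232).

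Of 46 interferon response genes tested, 13 fell and none rose (background 1.12% lower and 0.651% higher), and 31 were lower and 1 higher at an unadjusted p under 0.05 (background 8.42% lower). The 13 were Ifit1, Ifit3, Mx1, Mx2, Oas2, Usp18, Rsad2, Rtp4, Xaf1, Trim30a, Trim30d, Dhx58 and Zbp1. They include effectors, the cytosolic RNA receptor relative Dhx58, the DNA and RNA sensor Zbp1, and Usp18, which restrains interferon receptor signalling. The list's median log2 fold change was -0.38, beside 0.01 for all genes. It was -0.19 for miR-23 Tg minus WT and 0.29 for DKO minus WT. The list's summed RPKM was 2863 to 3298 in miR-23 Tg and 3316 to 4086 in DKO. It was 2931 to 3877 in miR-24 Tg, 4485 to 4585 in miR-27 Tg and 4660 to 5567 in cluster Tg. Of the 13, Rsad2 held 1 miR-23 match in the 3′ UTR used and the other 12 held none. Oas2 held 1 miR-24 match, and Ifit1, Ifit3 and Rsad2 held 1 miR-27 match each. The endosomal RNA receptor Tlr7, on the X chromosome, fell too, to 6.83, 7.03 and 5.47 RPKM in miR-23 Tg against 14.2, 12.9 and 12.7 in DKO. The number of interferon genes called was 7 with no filter on low values, 7 with sex as a covariate and 1 with the B cell score as a covariate, while their median stayed between -0.45 and -0.37 in all alternatives. Without single libraries it was 2 to 8, fewest without miR-23 Tg replicate 1.

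Interferon response genes are known for a promoter element whose letters can be written GAAANNGAAA. In RefSeq promoters (GRCm38.p6, 250 bases before to 50 after the start, both strands), these letters stood in 20 of 32 interferon genes of the list with a promoter entry (62.5%) and in 5 of the 6 called ones that had one, against 1131 of 32851 promoters (3.44%). Overlapping matches counted once per promoter, no other motif was searched, and a match is a description and not a binding site. The windows below, from called genes, have the letters in capitals on the strand opposite to the gene.
Ifit3 (promoter chr19:34583279-34583578): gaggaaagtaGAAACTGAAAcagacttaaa
Ifit1 (promoter chr19:34640639-34640938): tcagcagtgaGAAACTGAAActgagactgg
Rsad2 (promoter chr12:26456403-26456702): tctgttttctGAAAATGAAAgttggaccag

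Genes of mitosis moved together in the other direction. All 35 tested genes of the mitosis and G2/M list were higher in miR-23 Tg at an unadjusted p under 0.05 (background 9.17%), but 3 passed the adjusted threshold, Mki67, Ccna2 and Foxm1 (background 0.651%). None passed with no filter on low values or in 5 of the 6 fits that left out a library, and 1 passed without DKO replicate 3 or with sex as a covariate. The proliferation marker Mki67 read 24.9, 22.3 and 25.7 RPKM in miR-23 Tg, 6.45, 9.60 and 9.01 in DKO and 5.69, 11.8 and 10.4 in WT (log2 1.50 ± 0.33, adjusted p = 0.0382). Foxm1, the transcription factor of the G2/M program, read 7.38, 7.24 and 7.24 RPKM in miR-23 Tg and 2.25, 2.88 and 3.71 in DKO (adjusted p = 0.0382). DKO and WT overlapped in both genes and lay below miR-23 Tg. A high level was not particular to miR-23 Tg. In miR-24 Tg, miR-27 Tg and cluster Tg the means were 19.5, 62.1 and 30.1 RPKM for Mki67. In the same order they were 4.56, 14.1 and 6.50 RPKM for Foxm1 and 10.5, 37.0 and 19.3 RPKM for Ccna2. The list's summed RPKM was 403 to 428 in miR-23 Tg and 102 to 235 in DKO. It was 156 to 416 in miR-24 Tg, 404 to 1047.5 in miR-27 Tg and 363 to 470 in cluster Tg. The list's median was 1.40 for miR-23 Tg minus DKO, 1.35 for miR-23 Tg minus WT and -0.08 for DKO minus WT. In the list of DNA replication and S phase no gene of 30 passed, 15 were higher at an unadjusted p under 0.05, and the median was 0.44; Pole and Chaf1a had adjusted p of 0.0746 and 0.0836.

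Markers of other cells moved with the mitosis genes. In miR-23 Tg against DKO, the B cell list had 12 of 17 tested genes higher at an unadjusted p under 0.05, none passing, and a median of 1.31. Its summed RPKM was 242 to 939 in miR-24 Tg, 435 to 873 in miR-27 Tg and 267 to 375 in cluster Tg. Over the compared libraries the mean log2 level of that list was 0.25 to 0.60 in miR-23 Tg, -0.96 to -0.58 in DKO and -1.01 to -0.78 in WT, relative to the 18 libraries. With that score as a covariate, an alternative chosen after the data were seen, no mitosis gene passed and the list's median was 0.94; over all genes 13 were higher and 24 lower. The fit estimates the score's slope within the 6 genotypes, where it varied most in miR-24 Tg and miR-27 Tg, while the score did not overlap between miR-23 Tg and DKO. Myeloid genes had a median of 0.83 with 6 of 14 higher at an unadjusted p under 0.05, yet their summed RPKM overlapped, at 265 to 327 in miR-23 Tg and 291 to 359 in DKO. The neutrophil gene S100a8 read 8.34, 9.97 and 2.49 RPKM in miR-23 Tg and was listed at 0 in the 3 DKO libraries, without passing (adjusted p = 0.114). Summed erythroid and platelet markers were 15.4 to 45.0 RPKM in miR-23 Tg and 1.55 to 5.97 in DKO. Plasma cell markers summed to 106 to 132 and 88.2 to 112 RPKM, CD8 T cell markers to 21.6 to 30.9 and 18.7 to 24.4, and NK cell markers to 32.1 to 44.1 and 34.9 to 43.8, in miR-23 Tg and DKO. The part of these cells in the mitosis and other results was not tested.

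**Figure D5:**
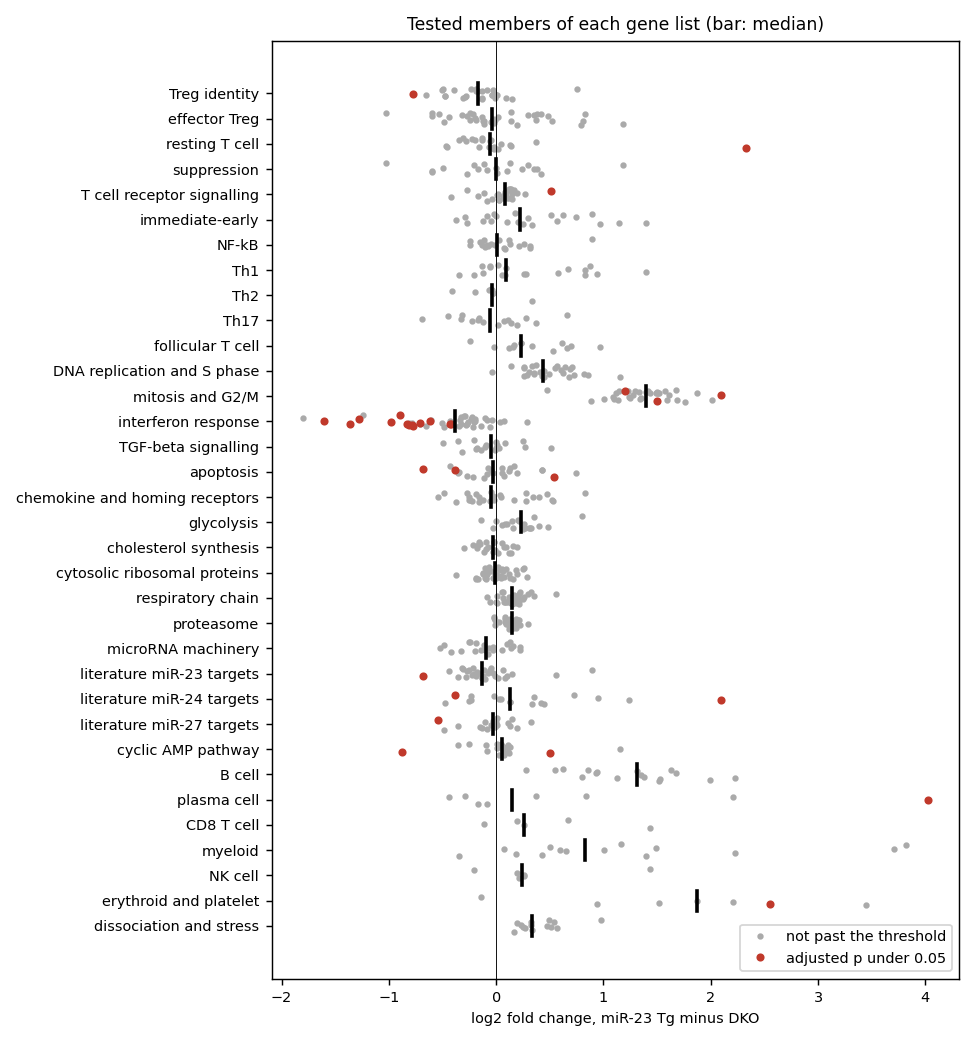
Log2 fold change, miR-23 Tg minus DKO (horizontal axis), of every tested gene (points) in 34 lists, with the median (bar); genes with an adjusted p under 0.05 are red. The interferon list lies left of 0 with a median of -0.38 and 13 red points, the mitosis list right of 0 with a median of 1.40 and 3 red points, and the B cell list at 1.31 with none.

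Treg identity genes leaned lower in miR-23 Tg, with 1 that passed. Of 27 tested, 1 fell and none rose (background 1.12% lower and 0.651% higher), and 9 were lower and 1 higher at an unadjusted p under 0.05 (background 8.42% and 9.17%). The log2 fold change was negative for 23 of the 27, with a median of -0.17. Their summed RPKM was 3586 to 3793 in miR-23 Tg, 4154 to 4305 in DKO and 3928 to 4339 in WT. By this sum miR-23 Tg lay below DKO and WT. The sum was 3324 to 3702 in miR-24 Tg, 3279 to 3916 in miR-27 Tg and 3625 to 4096 in cluster Tg. The gene that fell was Ecm1, an extracellular matrix protein, at 90.3, 86.5 and 84.6 RPKM in miR-23 Tg, 147, 138 and 163 in DKO and 125, 128 and 168 in WT (log2 -0.77 ± 0.12, adjusted p = 0.00547). It was also below WT (adjusted p = 0.0269). A low Ecm1 level was not particular to miR-23 Tg. The means were 32.0 RPKM in miR-24 Tg, 92.7 RPKM in miR-27 Tg and 62.4 RPKM in cluster Tg. The Ecm1 3′ UTR held 1 miR-24 match and no miR-23 match. Foxp3 read 243, 215 and 249 RPKM in miR-23 Tg and 348, 323 and 312 in DKO. Its groups did not overlap, but the difference (log2 -0.47 ± 0.16) missed the threshold (adjusted p = 0.148). Il2ra, the CD25 gene on which the cells were sorted, had a log2 fold change of -0.39 (adjusted p = 0.203), and Ikzf2 one of -0.48 (adjusted p = 0.112). Ctla4, Il10, Rel and Gata3 lay between -0.13 and 0.01 with overlapping libraries. No gene passed among 37 of effector Treg, 19 of suppression, 19 of Th1, 8 of Th2, 16 of Th17 and 13 of follicular T cells (background 1.77% in either direction). At an unadjusted p under 0.05, 7 of the 19 Th1 genes and 4 of the 13 follicular T cell genes were higher (background 9.17%), and 1 Th1 gene was lower.

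Signalling, apoptosis and metabolism lists held 0 to 3 calls each. Ptpn22, a phosphatase that dampens T cell receptor signalling, rose to 129, 139 and 112 RPKM in miR-23 Tg against 92.9, 84.1 and 88.1 in DKO (adjusted p = 0.047), the only one of 27 receptor signalling genes. In the cyclic AMP list of 20, the prostacyclin receptor Ptgir fell (log2 -0.88, adjusted p = 0.0226) and the kinase subunit Prkar2a rose (log2 0.50, adjusted p = 0.0382), and each also differed from WT (adjusted p = 0.0382 each). Among 23 apoptosis genes, Ppif and the initiator caspase Casp9 fell and Bcl2a1b, one of several near-identical Bcl2a1 copies, rose. Casp9 is also a published miR-24 target, and Nfe2l2, the oxidative stress regulator Nrf2 and a published miR-27 target, read 13.0, 15.3 and 12.1 RPKM against 19.9, 18.3 and 20.7 in DKO (adjusted p = 0.00853). No gene passed in the lists of immediate-early genes, NF-kB, TGF-beta signalling, chemokine and homing receptors, glycolysis, cholesterol synthesis, cytosolic ribosomal proteins, respiratory chain, proteasome, microRNA machinery or dissociation and stress, whose medians ran from -0.09 to 0.33, against the same background of 1.77%. At an unadjusted p under 0.05, 7 of 20 glycolysis genes were higher and none lower (background 9.17% and 8.42%). All 14 dissociation and stress genes had a positive log2 fold change, 2 of them at an unadjusted p under 0.05.

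Some differences arose on the DKO side. Arpc1a, a subunit of the actin-nucleating Arp2/3 complex, had the smallest adjusted p of the comparison. It read 38.2, 40.9 and 38.4 RPKM in miR-23 Tg, 68.0, 70.0 and 75.2 in DKO and 46.1, 44.4 and 44.9 in WT. Its log2 fold change was -0.85 ± 0.06 (adjusted p = 2.1e-05), and DKO was also above WT (adjusted p = 0.00071), while miR-23 Tg against WT did not pass (adjusted p = 0.172). With 2010111I01Rik it was 1 of the 2 genes that differed between DKO and WT; both were named for that after their values were seen. Rnu11, the U11 small nuclear RNA of the minor spliceosome, was listed at 0 in all 3 miR-23 Tg libraries and read 38.0, 11.1 and 12.5 RPKM in DKO, but WT spanned 0 to 32.5, so the level varied within a genotype.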

How the data were processed

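RNA of sorted Treg cells was sequenced from TruSeq libraries of total RNA on an Illumina HiSeq instrument, per the labels' protocols. The authors deposited a table of RPKM values for 18 libraries. STAR 2.2.0c, HOMER and mm10 (GRCm38) are named in the submitters' processing notes; which annotation and strand setting made the RPKM is not given in the sources used here. Of 23953 entries, 4 with repeated symbols were left out, 27 had symbols altered into dates and 5198 were at 0 throughout; 22635 matched GENCODE M21 directly and 922 by synonym.

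Genes at 1 RPKM or more in at least 3 libraries (11520) were tested on log2(RPKM + 0.5) with limma 3.58.1 in R 4.3.3, with a mean-variance trend and all 18 libraries in 1 model (12 residual and 2.26 prior degrees of freedom). Benjamini-Hochberg adjusted p, two-sided, was called under 0.05. Fold changes on this scale understate those of low genes. Sites were 7-base matches in the longest annotated 3′ UTR of at least 50 bases. Summaries and plots used pandas 2.3.3 and matplotlib 3.10.9 under Python 3.11.15. Named genes were the 12 largest rises and 12 largest falls, without predicted and small RNA symbols, a panel of Treg genes, up to 4 called genes per list (or 2 values where none was called) and 5 site genes each way; some are given as counts only. The members, 36 lists and rule were chosen with earlier results of these data known. Counts of reads were not used. Some genes are not reported here.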

Additional observations from a re-analysis of the deposited data

Results flagged for a closer look

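Hbb-bh1 was listed at 0 in the 3 DKO and the 3 WT libraries and had reads in libraries outside the comparison, all of them transgenic. Its mean was 1.64 RPKM in miR-24 Tg, 2.62 RPKM in miR-27 Tg and 0.768 RPKM in cluster Tg, beside 2.43 RPKM in miR-23 Tg. Reads may be shared with near-identical globin copies. WT replicate 2 had Hbb-bh1 at 0 and summed erythroid and platelet markers of 23.98 RPKM, a single library and a sum over several genes. The source of the Hbb-bh1 reads was not tested.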

How the results depend on the processing

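The 204 genes called between miR-23 Tg and DKO kept their direction in every alternative run, and no named result reversed. Their groups did not overlap, so leaving out a library or changing the pseudocount could not have reversed the direction. Of the 64 named genes that were called, 18 held in every fit that left out a library. With the replicate number as a block, 194 genes were higher and 205 lower, 76 differed between miR-23 Tg and WT, and 1 between DKO and WT; 25 mitosis and 20 interferon genes were called, against 0 to 1 and 2 to 8 when a library was left out. Deviations from the group means correlated at -0.146 to 0.097 between same-numbered miR-23 Tg and DKO libraries. Over all 45 same-numbered pairs the range was -0.167 to 0.188, with 6 pairs over 0.1. These values cannot tell whether the numbers mark paired samples or a shared batch. With the compared groups alone in the fit, 83 genes were lower and 148 differed between miR-23 Tg and WT. With the B cell score as a covariate 13 were higher, 24 lower and 1 differed from WT, and with sex as a covariate 60 were higher, 94 lower and 20 differed from WT; both were added after seeing the data. A pseudocount of 1 gave 26 calls against WT. Leaving out each library gave 11 to 43 higher, 18 to 77 lower, 2 to 5 against WT and 1 to 2 for DKO against WT; miR-23, miR-24 and miR-27 site genes minus genes with no site had medians of -0.14 to -0.05, -0.08 to -0.01 and -0.10 to -0.03, and Mir23a, Mir27a and Mir24-2 exceeded DKO by 31291 to 34915, 121 to 176 and 26.7 to 32.4 RPKM. The cause of these shifts was not tested. Calls among low genes are limited by depth.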
